A study of Mus musculus with 8 samples.

Results

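The 8 genes described here encode myosin light chains and the kinases that phosphorylate them: the essential light chains Myl1, Myl3, Myl4 and Myl6b, the regulatory light chains Myl2 and Mylpf, and the light chain kinases Mylk and Mylk2. They were taken by gene name from the array files, which held 10 probes for them out of 55681 probes that are not controls, and all 8 were among the 13718 genes tested. RNA was taken on day 4 of differentiation from C2C12, mouse myoblasts that form multinucleate myotubes in culture, after transfection with a control siRNA (4 samples) or with an siRNA against macroH2A1.1 (4 samples), and both groups therefore carried an siRNA. MacroH2A1.1 is the NAD+ metabolite-binding isoform of macroH2A1, a histone H2A variant, and the series title links it to mitochondrial respiration. A treatment label calls the second group a knockout, while its titles and the design text name an siRNA, which was followed here. All samples come from 1 cell line in culture, and RNA of a whole culture cannot separate fewer cells of a type from less RNA per cell.

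Muscle myosin is a pair of heavy chains, each with an essential light chain that stiffens the lever arm and a regulatory light chain wrapped around the neck. Myosin light chain kinases, switched on by calcium-bound calmodulin, phosphorylate the regulatory chain; this triggers contraction in smooth muscle and potentiates force in skeletal muscle. Different fibre types use different light chains: Myl1 and Mylpf are the fast skeletal forms, Myl2 and Myl3 serve slow skeletal fibres and the cardiac ventricle, and Myl4 is the form of embryonic muscle and the atrium. Mylk2 is the skeletal muscle kinase, whereas Mylk is best known from smooth muscle and nonmuscle cells.

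Most members were read by a single probe of 60 bases, and position decides what a probe can report. The Myl1 main probe lies on the minus strand of chromosome 1 at chr1:66970948-66971007 (mm9), and 2 RefSeq transcripts of the gene are listed for it. The Myl1 second probe is listed for 1 RefSeq transcript, and its ends lie 4248 bases apart on the genome (chr1:66976853-66981100, minus strand), so it spans at least 1 exon junction and reads coding sequence. The Myl2 probe, at chr5:122556732-122556791 on the plus strand, runs over the end of the coding sequence, and capitals mark its stop codon. Both are shown because they tie a signal to the protein-coding message of one gene.
Myl1 second probe: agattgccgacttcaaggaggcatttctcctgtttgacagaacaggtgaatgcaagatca
Myl2 probe: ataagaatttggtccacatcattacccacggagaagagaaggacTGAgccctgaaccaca

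The other probes were listed for 1 RefSeq transcript each, except the Mylk second probe. They lay at chr9:110672238-110672297 for Myl3 (plus strand), chr11:104448441-104448500 for Myl4 (plus), chr10:127931214-127931273 for Myl6b (minus), chr7:134355191-134355250 for Mylpf (plus) and chr2:152748725-152748784 for Mylk2 (plus). Mylk had a main probe at chr16:35001266-35001325 and a second probe at chr16:34953958-34954017, listed for a cDNA and 0 RefSeq transcripts, both on the plus strand. The Mylpf probe starts at base 69 of its listed transcript, whereas the main probe of Myl1 starts at base 856, that of Myl2 at base 501 and that of Mylk2 at base 2871. Labelling was primed with oligo-dT, per the labels, so the level of a probe is not ranked against that of another; where a gap between probes is given, only its change between groups is compared.

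The sequence before the annotated starts of the regulatory light chains is shown because only these members passed the test below, with that of Myl1, the fast essential partner of Mylpf. The windows hold the 250 bases before a start in RefSeq (GRCm38.p6), and capitals mark each E-box, CANNTG, the class of element bound by MyoD and its relatives. The windows are chr7:127211358-127211607 (plus) for Mylpf, chr5:122092474-122092723 and chr5:122092939-122093188 (plus) for the 2 listed starts of Myl2, and chr1:66945057-66945306 (minus) for Myl1.
Mylpf: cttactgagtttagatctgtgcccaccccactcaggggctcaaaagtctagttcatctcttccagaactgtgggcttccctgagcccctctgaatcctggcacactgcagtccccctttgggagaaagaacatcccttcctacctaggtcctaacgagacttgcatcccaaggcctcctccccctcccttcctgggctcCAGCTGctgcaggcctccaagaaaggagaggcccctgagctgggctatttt
Myl2 upstream start: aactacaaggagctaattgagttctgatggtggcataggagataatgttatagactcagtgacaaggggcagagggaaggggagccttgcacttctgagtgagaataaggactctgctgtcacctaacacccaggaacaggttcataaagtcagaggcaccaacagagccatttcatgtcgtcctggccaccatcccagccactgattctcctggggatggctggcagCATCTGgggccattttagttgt
Myl2 downstream start: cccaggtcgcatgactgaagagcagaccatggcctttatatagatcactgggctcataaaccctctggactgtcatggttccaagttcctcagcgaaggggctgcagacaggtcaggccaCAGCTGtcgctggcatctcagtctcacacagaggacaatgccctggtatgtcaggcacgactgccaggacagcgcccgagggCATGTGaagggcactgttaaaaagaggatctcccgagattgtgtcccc
Myl1: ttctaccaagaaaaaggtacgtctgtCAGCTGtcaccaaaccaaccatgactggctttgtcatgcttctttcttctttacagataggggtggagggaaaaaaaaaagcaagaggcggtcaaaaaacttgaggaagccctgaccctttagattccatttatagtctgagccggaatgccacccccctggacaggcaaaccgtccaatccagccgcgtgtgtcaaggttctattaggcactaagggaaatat

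Of the 8 windows found for 7 members, 6 held CANNTG, which 66.2% of all 32851 such windows hold. The narrower form CAGCTG, read the same on both strands and included in CANNTG, was in 3 member windows (Mylpf, Myl1 and the downstream start of Myl2) and in 13% of all windows. The CArG box, the element of serum response factor, was found only in the Myl3 window among the members and in 1.47% of all windows. No member window held the MEF2 element searched here, which 2.92% of all windows hold. These matches describe letters in the windows, and binding was not measured.

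On each array 46.9% to 49.8% of 59305 spots that are not controls exceeded background by the scanner software's own test, and 0 were saturated. Values below are log2 signals relative to the 75th percentile of their array, so a value of 0 is that percentile and each unit is 1 step on the log2 scale. Differences are macroH2A1.1 siRNA minus control siRNA. They were tested across all 13718 genes with limma (two-sided, Benjamini-Hochberg adjusted p, threshold 0.05), first without pairing and then with the replicate number as a block, because samples of the same number deviated together. "Rose" and "fell" are used only for genes past the threshold with that block. Macroh2a1, the targeted gene, read 1.83 ± 0.05 (SD, n = 4) in control cells and 0.85 ± 0.17 (SD, n = 4) with its siRNA, a difference of -0.98 (adjusted p = 0.0392 in limma without pairing and 0.0147 with the block). Replicate 2 of macroH2A1.1 siRNA was set off from the rest on principal component 1, at 60.1 against -27.4 to 7.96 for the other arrays, and each member's difference is also given without it. The design calls the replicates biological without saying whether cultures were separate, and p-values cover the spread among these 8 samples alone, whose number limits the precision.

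Both regulatory light chains rose and no member fell. Mylpf rose by 0.52 and Myl2 by 1.97, a 3.92-fold higher signal, and the main probe of Mylk, the smooth muscle kinase, was lower in every pair without passing the test, while its second probe read 0.42 higher in pair 4. Without pairing, 0 of 8 members passed, beside 0.00729% of all genes called higher and 0.0146% called lower. At an unadjusted p under 0.05 in limma, 5 of 8 members did (Myl6b, Myl2, Mylpf, Mylk and Mylk2), as did 1681 of all 13718 genes. With the block, 2 of 8 rose, beside 4.23% of all genes called higher, and 0 fell, beside 3.63% called lower. The median difference of all 8 members, Myl3 included, was 0.51, against 0.0087 over all genes tested. Myl1, Myl3, Myl6b, Myl2, Mylpf and Mylk2, 6 of 8, were higher in all 4 pairs, as were 20.9% of all genes, and the main probe of Mylk was lower in all 4, as were 17.4%. Without Myl3, whose control values in pairs 2 and 3 were not above background, 5 of 7 were higher in all 4 pairs. Groups overlapped for every member, whereas 8% of all genes had groups that did not overlap. The blocked count depended on the processing: 6 of 8 rose with normexp background correction, beside 6.88% of all genes, and 6 of 8 with the authors' series values, beside 5.94%. Both counts include Myl3, which was kept through the siRNA group alone, and were 5 of 7 without it. With only probes that exceeded background on every array, 4 of 7 rose, beside 5.54%, and without a filter on dim probes none did, as for 0 of all genes.

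**Figure D1:**
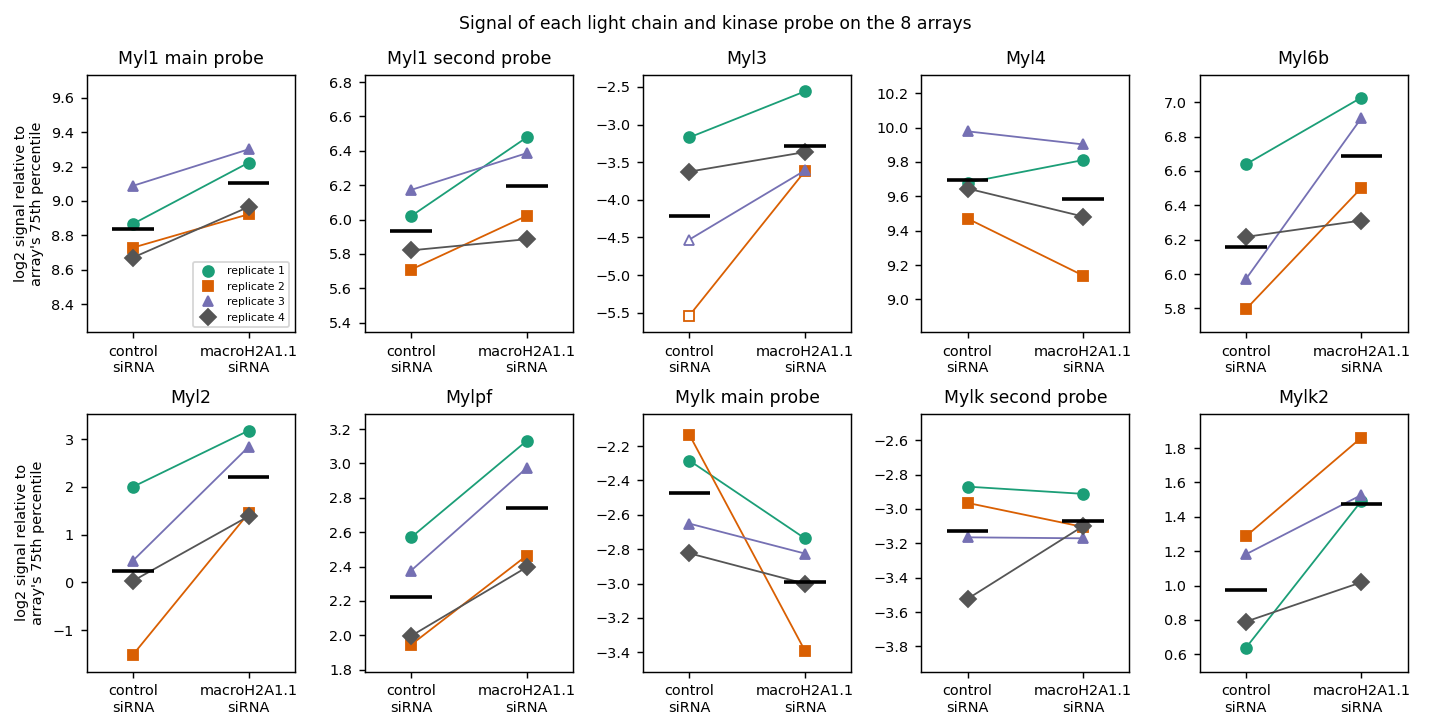
Log2 signal relative to the 75th percentile of the array (vertical axis, own range in each panel) of the 10 probes in 4 control siRNA and 4 macroH2A1.1 siRNA samples. Lines join samples of the same replicate number, black bars are group means, and open symbols are spots not well above background. Lines of Mylpf run nearly parallel, with pair differences from 0.40 to 0.60, while those of Myl2 differ from 1.18 to 2.97.

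Mylpf, the regulatory light chain of fast skeletal fibres, differed by a like amount in every pair. Its control samples 1 to 4 read 2.57, 1.95, 2.38 and 1.996, and its macroH2A1.1 siRNA samples read 3.13, 2.46, 2.97 and 2.40. Replicates 1 and 3 were high in both groups and 2 and 4 low, so the groups overlapped although every pair moved upward. Group means were 2.22 ± 0.30 and 2.74 ± 0.37 (SD, n = 4), and the pairs differed by 0.56, 0.52, 0.60 and 0.40. The difference of 0.52 had an SE of 0.21 and adjusted p = 0.374 in limma without pairing, and an SE of 0.060 and adjusted p = 0.0181 with the block. Without macroH2A1.1 siRNA replicate 2 it was 0.61 (limma adjusted p = 0.334, no pairing), and without pair 2 it was 0.52 (limma adjusted p = 0.0721, block).

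Myl2, the regulatory light chain of slow fibres and ventricle, had the widest range of any member. Control samples 1 to 4 read 2.003, -1.52, 0.45 and 0.03, an 11.5-fold span between the highest and the lowest. With macroH2A1.1 siRNA they read 3.18, 1.45, 2.84 and 1.39. Control replicate 1 lay above replicates 2 and 4 of the siRNA group, so the groups overlapped, but the pairs were higher by 1.18, 2.97, 2.39 and 1.35. Group means were 0.24 ± 1.45 and 2.21 ± 0.93 (SD, n = 4). The difference of 1.97 had an SE of 0.74 and adjusted p = 0.333 without pairing, and an SE of 0.32 and adjusted p = 0.0329 with the block, both in limma. Pair 2 had the largest change, and without it the difference was 1.64 (limma adjusted p = 0.0798, block); without macroH2A1.1 siRNA replicate 2 alone it was 2.23 (limma adjusted p = 0.326, no pairing).

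The exact permutation test of a single member, two-sided, cannot go below p = 0.0286 with pairs ignored or below 0.125 within pairs (n = 4). This exact test gave p = 0.0857 for Myl2 and 0.114 for Mylpf with pairs ignored, and the smallest value allowed, 0.125, for both within pairs. With the block, 0 of all genes passed when pair 1, 2 or 3 was left out. Mylpf passed without pair 4 (0.56, limma adjusted p = 0.0338), where 591 genes did.

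**Figure D2:**
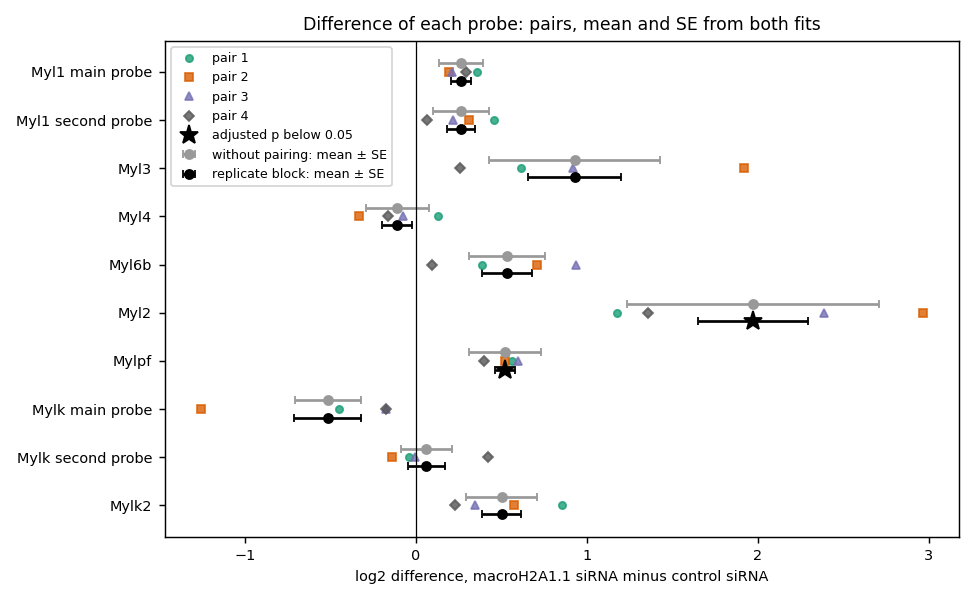
Log2 difference of each probe between the siRNA groups (horizontal axis, macroH2A1.1 siRNA minus control siRNA). Coloured symbols are the 4 pairs, and grey and black symbols with bars are the mean and SE from limma without pairing and with the replicate block. Stars mark adjusted p below 0.05, reached by Myl2 and Mylpf with the block. The SE of Mylpf shrinks from 0.21 to 0.060 with the block, and that of Mylk stays at 0.20 after 0.19.

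Among the essential light chains, none passed the test in either fit. Myl1, the fast skeletal form, read 8.87, 8.73, 9.09 and 8.67 in control samples 1 to 4 and 9.22, 8.92, 9.30 and 8.96 with macroH2A1.1 siRNA on its main probe. Every pair was higher by a small amount, 0.19 to 0.36, and the groups overlapped. The difference of 0.26 had limma adjusted p = 0.465 without pairing and 0.0535 with the block, which lies just above the threshold. The Myl1 second probe, listed for 1 transcript, differed by the same amount, 0.26 (pairs 0.06 to 0.46, limma adjusted p = 0.139 with the block over 24997 probes). The gap between both Myl1 probes changed by 0.0019 between groups (exact permutation p = 1 with pairs ignored, two-sided, n = 4), a comparison added after seeing the data. Without macroH2A1.1 siRNA replicate 2 the main probe differed by 0.32 and the second by 0.32 (no pairing).

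Myl6b, an essential light chain of slow muscle and nonmuscle cells, read 6.64, 5.79, 5.97 and 6.22 in control samples and 7.03, 6.502, 6.91 and 6.31 with macroH2A1.1 siRNA. Replicate 4 barely moved, by 0.10, while pair 3 differed by 0.94. The mean difference of 0.53 (SE 0.22 without pairing, 0.15 with the block) had limma adjusted p = 0.383 and 0.0836. The groups overlapped through control replicate 1 and the siRNA replicates 2 and 4. Without macroH2A1.1 siRNA replicate 2 the difference was 0.59 (no pairing).

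Myl3, the essential partner of Myl2 in slow fibres and the ventricle, was close to background. Its probe was well above background on 2 of 4 control arrays and on all 4 macroH2A1.1 siRNA arrays, so it entered the test through the siRNA group alone. Control samples 1 to 4 read -3.17, -5.54, -4.53 and -3.63, of which replicates 2 and 3 were the dim ones, and the siRNA samples read -2.56, -3.62, -3.61 and -3.37. The difference of 0.93 (SE 0.50, limma adjusted p = 0.508 without pairing and 0.0944 with the block) shrank to 0.28 with normexp background correction and to 0.20 with the authors' series values, with limma adjusted p = 0.0359 and 0.0496 in the blocked fits. It was 1.04 without macroH2A1.1 siRNA replicate 2 (no pairing).

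Myl4, the embryonic and atrial essential light chain, read 9.68, 9.47, 9.98 and 9.65 in control samples and 9.81, 9.14, 9.90 and 9.48 with macroH2A1.1 siRNA. Pairs 2, 3 and 4 were lower and pair 1 was higher by 0.13. The difference of -0.11 (SE 0.18) had limma adjusted p = 0.895 without pairing and 0.453 with the block, and turned to 0.038 without macroH2A1.1 siRNA replicate 2. The reading of Myl1 less that of Myl4 was higher in every pair, by 0.23, 0.53, 0.29 and 0.46, and the gap between them did not overlap between groups (-0.98 to -0.74 in control cells, -0.60 to -0.22 with macroH2A1.1 siRNA). That change of 0.37 had exact permutation p = 0.0286 with pairs ignored, or 0.0714 adjusted over the 5 comparisons of members made this way, and 0.125 within pairs (two-sided, n = 4). The difference did not pass after adjustment.

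Mylk2, the kinase of skeletal muscle, read 0.64, 1.29, 1.18 and 0.79 in control samples 1 to 4. With macroH2A1.1 siRNA it read 1.49, 1.86, 1.53 and 1.02. All pairs were higher, by 0.86, 0.58, 0.35 and 0.23, and replicate 4 of the siRNA group lay below control replicates 2 and 3. The difference of 0.50 (SE 0.21) had limma adjusted p = 0.383 without pairing and 0.0577 (SE 0.11) with the block. Without macroH2A1.1 siRNA replicate 2 it was 0.37 (limma adjusted p = 0.490, no pairing).

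On its main probe Mylk, the smooth muscle kinase, was lower in every pair. Control samples read -2.28, -2.13, -2.65 and -2.82, and siRNA samples read -2.74, -3.39, -2.83 and -3.00, low but well above background on all arrays. Pair 2 differed by -1.26 and the others by -0.45, -0.17 and -0.18. The difference of -0.52 (SE 0.19) had limma adjusted p = 0.338 without pairing and 0.162 (SE 0.20) with the block. It was -0.27 in the blocked fit without pair 2, -0.12 with normexp and -0.135 with the authors' series values. Without macroH2A1.1 siRNA replicate 2 it was -0.38 (no pairing).

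The Mylk second probe read -2.87, -2.96, -3.16 and -3.52 in control samples and -2.91, -3.10, -3.17 and -3.10 with macroH2A1.1 siRNA, a difference of 0.06 (limma adjusted p = 0.955 without pairing and 0.778 with the block, over 24997 probes). The gap between both Mylk probes was 0.51 to 0.83 in control cells and -0.29 to 0.35 with the siRNA. Its change of -0.57 had exact permutation p = 0.0286 with pairs ignored (0.0571 adjusted over the 2 such probe comparisons, chosen after seeing the data) and 0.125 within pairs (two-sided, n = 4). The probes are listed for different transcripts, and both are dim. The second probe differed by 0.070 without macroH2A1.1 siRNA replicate 2 (no pairing).

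The difference between the kinases was compared on the main probe of Mylk. The reading of Mylk2 less that of Mylk was higher in all 4 pairs, by 1.31, 1.83, 0.52 and 0.41, and did not overlap between groups (2.92 to 3.83 in control cells, 4.02 to 5.25 with macroH2A1.1 siRNA). The change of 1.02 had exact permutation p = 0.0286 with pairs ignored (0.0714 adjusted over 5 comparisons) and 0.125 within pairs (0.208 adjusted), two-sided, n = 4. The second Mylk probe does not give the same pattern, since in pair 4 it differed by 0.42 and Mylk2 by 0.23. Of the other 3 comparisons, the difference of Mylpf less that of Myl2 was -1.45 (exact permutation p = 0.0857 with pairs ignored, two-sided, n = 4), and Myl1 against Myl3 and against Myl6b gave exact p = 0.314 and 0.257. None passed after adjustment.

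**Figure D3:**
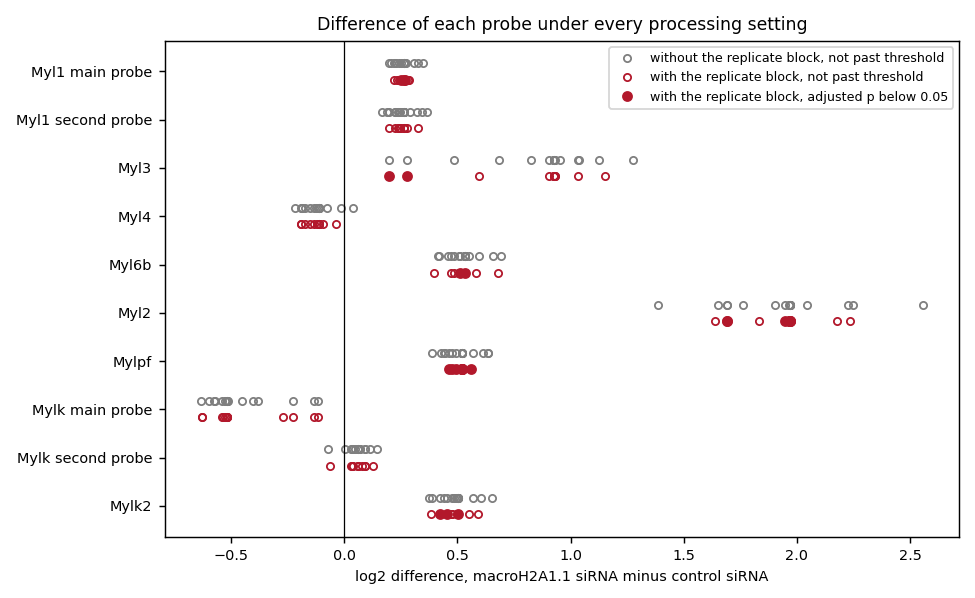
Log2 difference of each probe under every processing setting (horizontal axis, macroH2A1.1 siRNA minus control siRNA). Grey circles are fits without pairing and red circles fits with the replicate block, filled where adjusted p was below 0.05. Myl2 lies between 1.38 and 2.56 and Mylpf between 0.39 and 0.64 in all settings, while Myl4 and the Mylk second probe cross 0.

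The samples lowest and highest in the regulatory light chains were also the lowest and highest in myotube markers. Over the regulatory light chains, the median deviation from each gene's mean was lowest in replicate 2 of the control group (-1.64) and highest in replicate 1 of the siRNA group (1.30). The 12 myotube markers, all measured, were lowest in the same control sample (-0.45) and highest in the same siRNA sample (0.42). Other samples did not all go together. MacroH2A1.1 siRNA replicate 2 stood at 0.10 for the regulatory chains and -0.22 for the markers, and control replicate 3 at -0.44 and 0.066. The summed signal of the myotube markers, in multiples of the 75th percentile, was 2106 to 2786 in control cells and 2506 to 3632 with macroH2A1.1 siRNA. Of these markers 5 of 12 rose, beside 4.23% of all genes: Des by 0.59, Tnnc2 by 0.44, Ckm by 0.41, Tnni2 by 0.32 and Tnnt3 by 0.31. The other 7 did not pass, among them Myog (0.07), Mymk (0.14) and Cacna1s (0.14). Mymx differed by -0.21, was lower in every pair, and its groups did not overlap. The part of the myotube marker shift in the light chain values was not tested. The 8 measured markers of myoblasts or reserve cells, out of 10, were highest in control replicate 2 (0.79) and summed to 60.6 to 111 in control cells against 37.0 to 80.6 with the siRNA. These sums rest mostly on Cd34, with a control mean of 5.97, against 2.23 for Mki67, the next brightest. Cd34 fell by 0.62, beside 3.63% of all genes called lower. The other 7 did not pass and ran from -0.39 (Id3) to 0.43 (Msc), with Mki67 at -0.03 and Sdc4 at 0.03. Myf5 exceeded background on 0 arrays.

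Some genes listed as markers of other muscle or cell types passed the test with the block, where 4.23% of all genes were called higher and 3.63% lower. Of 6 measured smooth muscle markers out of 8, only Des, also counted above as a myotube marker, rose by 0.59, and none fell. The other 5 did not pass: Acta2 differed by 0.12, Cnn1 by 0.09, Smtn by -0.16, Actg2 by -0.24 and Tagln by -0.45. Summed signals of the list were 476 to 626 in control cells and 561 to 665 with the siRNA. Myh11, the smooth muscle myosin heavy chain, exceeded background on 0 arrays. Of 7 measured cardiac markers out of 9, Tnnt2 rose by 0.39 and Myh6 fell by 1.23, with sums of 827 to 932 and 958 to 1104. These sums rest on Actc1 and Tnnt2, with control means of 9.33 and 7.97. Gata4, the next brightest, had a control mean of 0.64. The other 5 cardiac markers did not pass: Nppb differed by -0.44, Nkx2-5 by -0.12, Gata4 by 0.0069, Actc1 by 0.10 and Tnni3 by 0.44. Fibroblast markers (7 of 8 measured, sums 1129 to 1458 and 1011 to 1445) included Postn, which fell by 0.997, and Col1a2, which fell by 0.40. The other 5 fibroblast markers did not pass: Col1a1 differed by -0.29, Lum by -0.23, Dcn by -0.08, Col3a1 by -0.07 and Pdgfra by 0.20. Of 5 measured macrophage markers out of 7 none passed with the block (sums 26.0 to 29.3 and 23.3 to 31.6). Cd68 differed by 1.32, and Ptprc and Lyz2 exceeded background on 0 arrays. All 3 measured adipocyte markers out of 7 rose (Plin4 by 1.32, Fabp4 by 1.42 and Pparg by 0.39; sums 3.04 to 4.81 and 5.08 to 7.11), while Adipoq, Plin1 and Cidec exceeded background on 0 arrays. Fabp4 was above background on 2 of 4 control arrays and was kept through the siRNA group alone; its difference fell to 0.46 at the lowest over the other blocked settings, and it passed in 4 of 10. The part of these shifts in the light chain values was not tested.

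The genes whose 8 values most resembled those of Myl2, by root mean square difference after centring each gene on its mean, were Ppp1r3a (0.44), which targets a phosphatase to glycogen in muscle, Myh2 (0.45), a fast myosin heavy chain, and Abcc9 (0.55), a subunit of a potassium channel. Myh2 was well above background on every array. Ppp1r3a and Abcc9 were so on 1 of 4 control arrays each and on all 4 siRNA arrays, so their control patterns, and with them their likeness to Myl2, rest mostly on values at background. Myl3 had too few control values above background for such a search, and the other members varied too little (SD under 0.5).

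Of 7 other light chains listed, 4 were measured, and none rose or fell. Myl9, the regulatory light chain of smooth muscle, differed by 0.95 (pairs 1.28, 0.95, 1.4002 and 0.19). Its limma adjusted p was 0.343 without pairing and 0.0534 with the block, and it passed in 4 of 11 other blocked settings. Myl6 differed by 0.11 (limma adjusted p = 0.285, block). Myl7, the atrial regulatory chain, and Myl10 exceeded background on 0 arrays, and Myl5 had no probe of that name. Of 12 measured kinases and calmodulin genes out of 14, 1 fell and none rose: Pak1 fell by 0.31 (paired SE 0.053, limma adjusted p = 0.0371). Pak1 passed in 5 of 11 other blocked settings. Mylk3, the cardiac kinase, had no probe above background on an array, and Mylk4 differed by 0.02 (limma adjusted p = 0.954, block). Of 8 myosin phosphatase genes, 1 fell and none rose. This was Ppp1r14a, a phosphatase inhibitor of smooth muscle, which fell by 0.49 (paired SE 0.063, limma adjusted p = 0.0212). Over the other blocked settings its difference ran from -0.53 to -0.15, and it passed in 4 of 11.

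The heavy chains, which carry the light chains, moved in both directions. Of 11 measured myosin II heavy chains out of 14, 4 rose and 3 fell. Myh14, a nonmuscle heavy chain, rose by 1.23 (paired SE 0.076, limma adjusted p = 0.0104) and Myh2 by 2.20 (adjusted p = 0.0140), while Myh7, the slow and ventricular heavy chain, fell by 1.32 and Myh6 by 1.23 (both limma adjusted p = 0.0140). Over the other blocked settings Myh14 ran from 0.78 to 1.28 and Myh2 from 1.17 to 2.34. Myh6 ran from -1.29 to -0.66 and Myh7 from -1.40 to -1.18, and each of these 4 passed in 7 of 11. Myh6 and Myh7 are close paralogs and their probes may share signal. Of 6 measured thick filament proteins out of 8, 3 rose, all of them M-band proteins: Myom1 by 0.59, Myom3 by 0.49 and Myom2 by 0.42 (limma adjusted p = 0.0150, 0.0320 and 0.0236). Mybpc1, the slow myosin-binding protein C, differed by 1.27 (limma adjusted p = 0.0512, block). The median difference was 0.12 for the other light chains, 0.06 for the kinases and calmodulin, 0.08 for the phosphatase, -0.02 for the heavy chains and 0.46 for the thick filament proteins, against 0.0087 over all genes. No gene of these 5 lists passed without pairing.

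**Figure D4:**
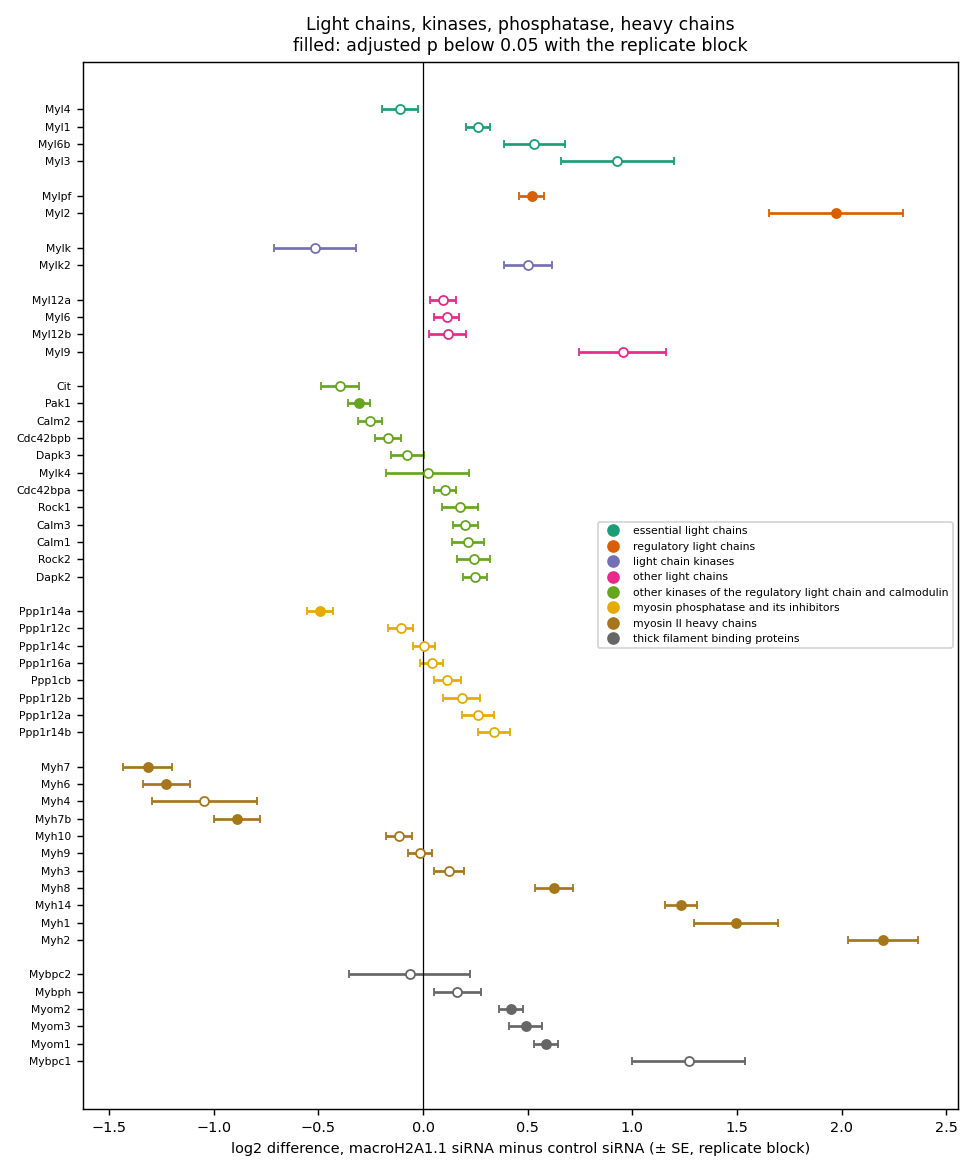
Log2 difference with SE from the replicate block fit (horizontal axis) of the members and of measured genes of 5 related lists, grouped by colour. Filled points had adjusted p below 0.05. Heavy chains spread from -1.32 (Myh7) to 2.20 (Myh2), and the light chains from -0.11 (Myl4) to 1.97 (Myl2).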

How the data were processed

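RNA of 8 samples (500 ng each) was labelled with Cy3 and hybridised to 1-colour Agilent arrays, per the labels. Spot intensity values were deposited as Agilent Feature Extraction 10.7.3.1 wrote them, with probe positions on mm9, per the file headers; that software had subtracted background from the processed intensity. The authors' series values follow log2 spot signal (r 0.9976 to 0.9995 with the mean signal of each array) and have 1 median, 6.29, and 1 75th percentile, 8.21, on all arrays; the deposited table does not state its background handling or normalization, and it served as an alternative.

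The 75th percentile of an array was subtracted from its log2 processed intensity, without control spots. Between 143 and 236 outlier spots an array became missing values, and repeat spots were averaged per probe. A probe was kept if every array of either group read it well above background (24997 probes). Names came from RefSeq (GRCm38.p6, names only) by accession for 27509 probes, by current symbol for 3549 and by older symbol for 404; 1541 kept the name in the file and 22678 had none. Each gene was represented by its brightest kept probe. Fits used lmFit and eBayes of limma 3.58.1 (R 4.3.3), tested on simulated data; Python 3.11.15 did the rest.

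The members and lists were chosen with earlier results of these data known. Genes were named by rule: every member, the targeted gene, up to 4 genes past the threshold per list or up to 2 that did not pass, and the 3 nearest patterns of members with SD of at least 0.5; those of Myl3 are left out because 2 control arrays did not read it above background. Ckm, Mylk4 and Mybpc1 lie outside the rule and were chosen after their values were seen. The same holds for the markers given as not passing in lists where another marker rose or fell. Replicate numbers were taken to pair the samples because the number is in the titles and samples sharing it deviated alike from their group means (correlations 0.61, 0.55, 0.66 and 0.41, each above 0.1). Arrays sharing a number were neighbours on the slide, and place and culture cannot be told apart. Control arrays lay in slide columns 1 and 3 and macroH2A1.1 siRNA arrays in columns 2 and 4. Column and siRNA group therefore cannot be told apart either.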

Additional observations from a re-analysis of the deposited data

How the results depend on the processing

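Without pairing, none of the 8 members passed under any setting. The count of genes past the threshold was 3, and was 1 with median centring, 1 with each probe alone, 9 with the array row as a block and 16 with the array column as a random block, and 0 to 8 on leaving out 1 array. With the replicate block it was 1078, and 1880 with normexp, 1060 with quantile normalization, 764 with median centring, 1598 with the authors' series values, 0 with no filter on dim probes, 1361 with probes well above background on all arrays, 974 with the mean of a gene's probes, 758 with each probe alone, and 0 to 591 on leaving out 1 pair. At an unadjusted p under 0.05 in limma, 3931 of 13718 genes passed with the block, and 7 of 8 members did. Each array column held a single siRNA group, so the column block cannot separate place on the slide from the siRNA.

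With the block, Myl2 differed by 1.97 (limma adjusted p = 0.0329) and passed with normexp (1.69, 0.0055), quantile normalization (1.96, 0.0334), median centring (1.95, 0.0335), series values (1.69, 0.0090), the stricter filter (1.97, 0.0222), mean of probes (1.97, 0.0361) and each probe alone (1.97, 0.0446). Mylpf differed by 0.52 and passed with the same settings (0.46, 0.52, 0.50, 0.475, 0.52, 0.52 and 0.52). Leaving out 1 pair gave 1.64 to 2.24 for Myl2 and 0.49 to 0.56 for Mylpf.

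Other members passed with the block under some settings only: Myl1 with normexp (0.25), series values (0.27, or 0.2675) and the stricter filter (0.26), Myl3 with normexp (0.28) and series values (0.20, or 0.1975), Myl6b with normexp (0.53) and series values (0.51), and Mylk2 with normexp (0.42), series values (0.45, or 0.4525) and the stricter filter (0.50). So 6 of 8 members rose with normexp (6.88% of all genes called higher) and 6 with series values (5.94%), both with Myl3, and 0 with no filter; the cause was not tested. On leaving out 1 array Myl4 ran from -0.22 to 0.038 (without macroH2A1.1 siRNA replicate 2), and the Mylk second probe from -0.072 (without control replicate 4) to 0.15. In the blocked fit without pair 4 the Mylk second probe differed by -0.063. Every other setting tried kept each member's direction. Dim signal limits Myl3 and both Mylk probes.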
